A study of Homo sapiens with 4 samples.

Results

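The SOX, FOX, TBX and GATA genes encode 4 families of transcription factors, and the values below describe new DNA methylation at their promoters in cells that had received a DNA methyltransferase construct. Members were all protein-coding genes with a symbol made of SOX, TBX or GATA and a number, or of FOX, a letter from A to S and a number. The annotation of GENCODE release 44 on hg19 held 83 such genes of 20162 protein-coding genes, comprising 45 FOX, 19 SOX, 13 TBX and 6 GATA genes. Promoters were windows that reached 1000 bp to each side of the canonical transcript's start. The rule uses symbols only.

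DNA methylation was measured genome-wide by MBD-seq in HEK293, a human embryonic kidney cell line, in 4 conditions with 1 library each. Wild type cells, labelled Ab-3A3L (WT), had been transfected with dCas9 carrying a SunTag of 10 peptide repeats, with an antibody fragment that binds these repeats and is fused to the catalytic domains of DNMT3A and DNMT3L, and with an sgRNA for ISG15, and were sorted and collected 3 days later. The K844E and R887E cells had received the same construct with an amino acid exchange in DNMT3A, and the untreated cells had received none. Only the new peaks listed for the wild type cells were analysed here, and the other libraries were not analysed here. Expression of the construct was transient, and a peak list holds no RNA, so the cell line could not be checked against marker genes. None of these 83 genes is the target of the sgRNA.

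SOX proteins bind DNA through an HMG box, FOX proteins through a forkhead domain, TBX proteins through a T-box and GATA proteins through zinc fingers. Many members set cell identity in the embryo, and their promoters commonly lie in long CpG islands that carry Polycomb marks and little DNA methylation in cells that do not use the gene. Other members, such as several FOXO, FOXK, FOXN and FOXP genes, are transcribed in many adult tissues.

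MBD-seq pulls down sheared DNA with a methyl-CpG binding domain, so that the number of fragments at a region rises with its number of methylated CpGs. The authors' list gives 12864 new peaks, 12795 of them on chromosomes 1 to 22, X and Y. For each peak it gives a fold enrichment over a background, from which, with the p-value, the fragments at the summit and the background rate, also in fragments, were recovered by the formulas of MACS2, in which the fold is the number of fragments plus 1 over the rate plus 1. The median peak of the list had a fold of 7.45 and 18 fragments. All listed peaks had a −log10 q of at least 2. Where a promoter held more than 1 peak, its fold, fragments and rate are those of the peak with the highest fold. A promoter without a listed peak is one that did not pass the authors' threshold, which is not a measurement of absent methylation. The list holds only peaks that were new relative to untreated cells, so a promoter already methylated in those cells could also be without one. For the same reason the background rate may hold local signal of the untreated cells, but the paper does not state which library it came from. With 1 library per condition there is no replicate error, and no test between conditions was possible. The intervals given are 95% exact binomial intervals and cover counting error only.

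Short stretches of hg19 sequence show how dense in CpGs these promoters are, with and without a new peak. For each family, 121 bases around the summit of the member with the highest fold whose summit lies outside untranslated regions are followed by the most CpG-rich 121 bases found in steps of 10 bp at the member with the most CpGs among those without a peak. Capitals mark CpG dinucleotides, and each sequence is given 5′ to 3′ on the strand of its gene. SOX12 is shown at chr20:307204-307324 on the plus strand, in its coding exon, with 16 CpGs. SOX8, without a peak, is shown at chr16:1031990-1032110 on the plus strand, in a coding exon, with 25 CpGs.
SOX12: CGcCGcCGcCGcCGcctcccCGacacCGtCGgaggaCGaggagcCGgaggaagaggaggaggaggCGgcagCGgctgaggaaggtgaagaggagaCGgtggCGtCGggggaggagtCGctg
SOX8: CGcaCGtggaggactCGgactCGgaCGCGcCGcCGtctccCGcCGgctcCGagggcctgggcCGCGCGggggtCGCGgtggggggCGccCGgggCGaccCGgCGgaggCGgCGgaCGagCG

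FOXK2 is shown at chr17:80477115-80477235 on the plus strand, upstream of its start site, with 19 CpGs. FOXC1, without a peak, is shown at chr6:1609900-1610020 on the plus strand, upstream of its start site, with 24 CpGs. TBX3 is shown at chr12:115122457-115122577 on the minus strand, upstream of its start site, with 15 CpGs. TBX2, without a peak, is shown at chr17:59477654-59477774 on the plus strand, in a coding exon, with 23 CpGs. GATA5 is shown at chr20:61051318-61051438 on the minus strand, upstream of its start site, with 9 CpGs, and GATA6, without a peak, at chr18:19750190-19750310 on the plus strand, in an intron, with 19 CpGs. In all 4 families the stretch without a peak held more CpGs than the stretch at the summit, but it had been chosen as the densest of its promoter.
FOXK2: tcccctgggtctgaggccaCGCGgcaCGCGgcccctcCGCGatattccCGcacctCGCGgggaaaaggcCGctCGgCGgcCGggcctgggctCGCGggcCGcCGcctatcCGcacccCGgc
FOXC1: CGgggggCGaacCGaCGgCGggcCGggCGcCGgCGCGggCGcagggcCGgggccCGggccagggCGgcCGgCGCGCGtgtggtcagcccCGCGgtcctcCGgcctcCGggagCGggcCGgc
TBX3: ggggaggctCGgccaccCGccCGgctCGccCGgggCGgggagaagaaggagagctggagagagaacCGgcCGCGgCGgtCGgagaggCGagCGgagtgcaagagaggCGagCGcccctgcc
TBX2: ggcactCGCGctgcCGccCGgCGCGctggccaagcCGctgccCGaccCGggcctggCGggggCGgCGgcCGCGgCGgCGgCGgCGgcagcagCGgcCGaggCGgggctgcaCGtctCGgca
GATA5: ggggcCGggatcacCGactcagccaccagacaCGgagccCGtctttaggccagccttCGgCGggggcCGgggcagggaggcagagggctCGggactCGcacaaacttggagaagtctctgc
GATA6: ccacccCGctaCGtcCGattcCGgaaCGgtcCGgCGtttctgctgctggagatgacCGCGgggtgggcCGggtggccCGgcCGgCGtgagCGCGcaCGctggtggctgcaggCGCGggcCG

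New peaks lay at the promoters of 36 of the 83 genes, or 43.4% (interval 32.5 to 54.7), beside 41.6% of all protein-coding promoters. The promoters of these genes are richer in CpGs than most, with a median of 147 CpGs in the window and a range from 9 to 249, against a median of 96 for the other genes. For a comparison at a like number of CpGs, all coding promoters were put into 10 classes by their CpG number. In the classes of the 83 genes, 61.9% of the other promoters carried a new peak, which is 18.5 percentage points above the share of the members. The share of the 83 genes was therefore close to that of all promoters and below that of promoters with as many CpGs. The classes do not take account of methylation before treatment. The untreated library was not analysed here, and the background rates given below may hold part of its signal. A CpG island lay at 73 of the 83 promoters, and 36 of these 73 carried a new peak, or 49.3% (37.4 to 61.3), beside 57.4% of all coding promoters with an island. All 36 members with a peak had an island, as did 8306 of the 8386 coding promoters with a peak.

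By family, new peaks lay at 24 of 45 FOX promoters, or 53.3% (37.9 to 68.3), where 64.4% of other promoters of the same CpG classes carried one. Of the SOX promoters, 7 of 19 carried a peak, or 36.8% (16.3 to 61.6), against 61.6% in the same classes. The counts were 4 of 13 for TBX, or 30.8% (9.09 to 61.4), against 54.2%, and 1 of 6 for GATA, or 16.7% (0.421 to 64.1), against 60.8%. All 4 families thus lay below the promoters of their classes, with intervals that overlap each other and, in each family, reach the share of the classes.

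**Figure D1:**
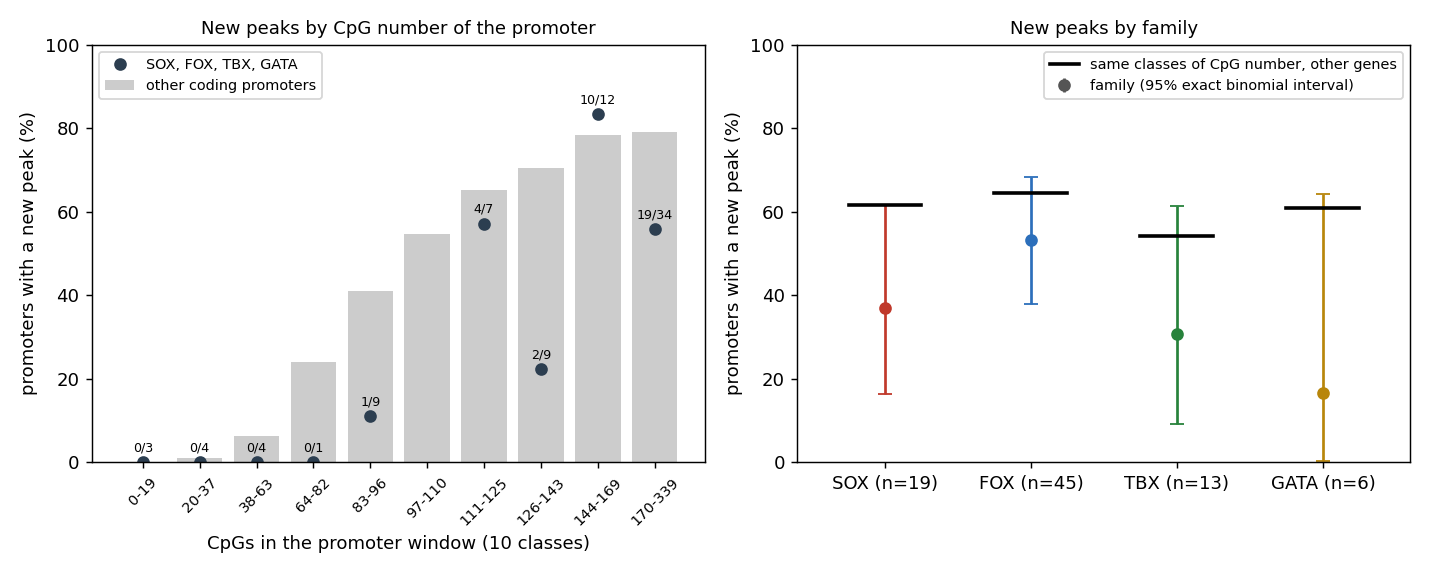
Share of promoters with a new peak (percent), by class of CpG number for the members (points, with counts) and other coding promoters (bars), and by family (points with 95% exact binomial intervals) beside the share in the same classes (black lines). The members lie below the others in each class from 83 CpGs upwards that holds members, except that of 144 to 169 CpGs, and all 4 families lie below their classes.

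Of 3 ranges of CpG number, the share of members was lower than that of their classes in the upper ones, and the lowest is not informative. None of 12 members with up to 82 CpGs carried a peak (interval 0 to 26.5%). The share of other promoters in their classes was 4.42%, so a count of 0 was likely in any case. Of the 25 members with 83 to 143 CpGs, 7 carried one, or 28.0% (12.1 to 49.4), against 58.3% in their classes. Of the 46 members with 144 CpGs or more, 29 carried one, or 63.0% (47.5 to 76.8), against 78.8%. Within the last range the members with 144 to 169 CpGs had a peak in 10 of 12 cases, beside 78.4% of other promoters, and those with 170 to 339 CpGs in 19 of 34, beside 79.0%. The share of members therefore did not rise further in the most CpG-rich class.

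**Figure D2:**
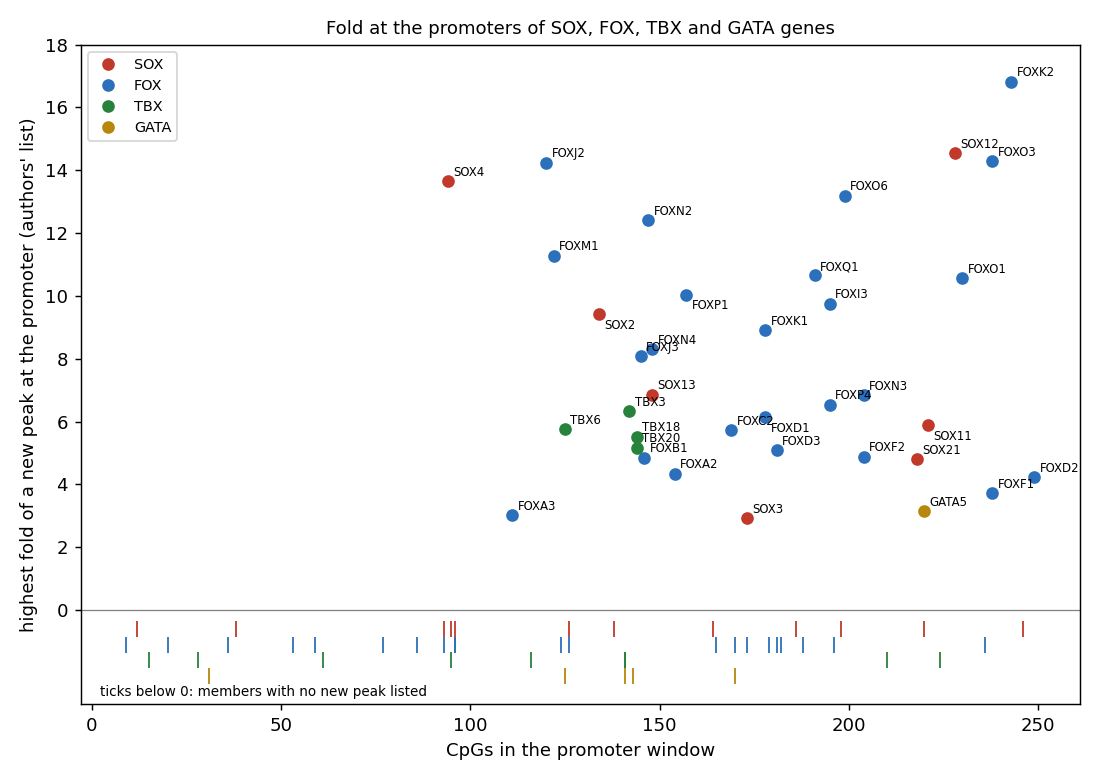
Highest fold of a new peak at the promoter against the number of CpGs in the window, for each member with a peak, coloured by family, with ticks below 0 for the members without a listed peak. Folds between 2.92 and 16.8 are spread over promoters from 94 to 249 CpGs, and members without a peak reach 246 CpGs.

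SOX genes fall into groups by the sequence of their HMG box, and the counts are given by these groups. All 3 SoxC genes, SOX4, SOX11 and SOX12, which act in neural and mesenchymal progenitors, carried a new peak. Among the SoxB1 genes of early neural tissue SOX2 and SOX3 carried one and SOX1 did not, and in SoxB2 SOX21 did and SOX14 did not. In SoxD the peak lay at SOX13 and none at SOX5 and SOX6. None of the SoxE genes SOX8, SOX9 and SOX10, known from neural crest and cartilage, and none of the SoxF genes SOX7, SOX17 and SOX18, known from endoderm and vessels, had a peak at the promoter, nor did SOX15 and SOX30. The share in the same CpG classes was 66.3% for the 3 SoxC genes, 66.1% for the 3 SoxE genes and 76.2% for the 3 SoxF genes. It was 76.2% for SoxB1, 74.7% for SoxB2, and 41.0% for each of SOX15 and SOX30. For SoxD it was only 28.2%, as SOX5 and SOX6 had 38 and 12 CpGs and no island. With at most 3 genes in each group these counts are a description only.

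The highest SOX folds were at SOX12 and SOX4. SOX12 had a fold of 14.5 with 23 fragments over a background rate of 0.6496, in a peak on chromosome 20 from 305927 to 307506 that covers the start site. Together with a weaker peak upstream it held 207 of the 228 CpGs of the window. At SOX4, on chromosome 6, a fold of 13.7 came from 21 fragments over a rate of 0.611, with the summit in the coding exon 1480 bp from the start. SOX2, the pluripotency and neural progenitor factor, had a fold of 9.41 with 18 fragments over 1.02, and its summit also lay in the coding exon. These 3 folds exceeded the median of 8.26 over all coding promoters with a peak, and those of the other 4 SOX genes did not. SOX13 had a fold of 6.85 with 15 fragments over 1.33, and SOX11 had 5.88 with 15 over 1.72. SOX21 had 4.80 with 13 fragments over 1.91. By the highest peak of each gene, the lowest fold of all members, 2.92, was at SOX3 on the X chromosome, where 27 fragments stood over a rate of 8.60. SOX3 thus had the most fragments of the 7 genes and the lowest fold, since its background was the highest.

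FOX genes are named by letter for subfamilies of the forkhead domain. A peak lay at FOXA2, FOXA3, FOXB1, FOXC2, FOXD1, FOXD2, FOXD3, FOXF1, FOXF2, FOXI3, FOXJ2, FOXJ3, FOXK1, FOXK2, FOXM1, FOXN2, FOXN3, FOXN4, FOXO1, FOXO3, FOXO6, FOXP1, FOXP4 and FOXQ1. None was listed at FOXA1, FOXB2, FOXC1, FOXD4, FOXE1, FOXE3, FOXH1, FOXI1, FOXI2, FOXJ1, FOXL1, FOXL2, FOXL3, FOXN1, FOXO4, FOXP2, FOXP3, FOXR1, FOXR2 and FOXS1. Both FOXK and both FOXF genes carried a peak, where the share in the same CpG classes was 79.0%. So did 3 of 4 FOXD and 3 of 4 FOXO genes, with 69.5% in the classes of each, and 3 of 4 FOXN genes, with 60.5%. None of the 3 FOXL and none of the 2 FOXE genes did, beside 74.2% and 79.0%. FOXD4 has near-identical copies in the genome, so that its reads could have been placed elsewhere, and its lack of a peak is uncertain.

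FOXK2, a repressor of the FOXK group, had the highest fold of all members. Its promoter on chromosome 17 carried 2 peaks flanking the start site at 80477608, one from 80476930 to 80477605 with a fold of 16.8 and 30 fragments, and one from 80477894 to 80478593 with a fold of 15.98 and 29 fragments. FOXO3, a factor held in check by insulin signalling, was next among FOX genes, with a fold of 14.3 and 22 fragments over the rate of 0.611. FOXJ2 had 14.2 with 28 fragments over 1.04. FOXO6, like FOXO3 a FOXO factor, had 13.2 with 27 fragments over 1.12, and FOXN2 had 12.4 with 19 over 0.611. Among the folds of all peaks in the list, these 5 lay between percentile 87.5 and percentile 98.0. The lowest FOX folds were those of FOXA3, FOXF1 and FOXD2. FOXA3, a liver factor that opens chromatin, had a fold of 3.02 although 23 fragments were counted, over a rate of 6.94. FOXF1 of lung and gut mesenchyme had 3.72 with 21 fragments over 4.92, and FOXD2 had 4.24 with 28 over 5.85. The 3 genes with the lowest folds thus had 21 to 28 fragments, within the range of 19 to 30 of the 5 highest, over higher backgrounds.

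After these values had been seen, the FOX genes were split into letters J, K, M, N, O and P and the rest, and this split supports nothing further. The intervals given for it take no account of that choice. Of the 18 genes with the first letters 13 carried a peak, or 72.2% (46.5 to 90.3), beside 62.0% in the same CpG classes, and their median fold was 10.6 over a median rate of 0.685. Of the 27 genes with the other letters 11 did, or 40.7% (22.4 to 61.2), beside 66.0%, with a median fold of 4.88 over a median rate of 3.30. At the highest peak of each gene, the background rate was above 2 at none of the 13 in the first set and at 8 of 11 in the second. A weaker second peak at FOXJ2, of the first set, had a rate of 6.94. Among the genes with an island the counts were 13 of 15, beside 73.9% in the classes, and 11 of 26, beside 68.5%.

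TBX genes act in the mesoderm, heart, limb and pharynx. TBX3, TBX6, TBX18 and TBX20 carried a peak, and TBX1, TBX2, TBX4, TBX5, TBX10, TBX15, TBX19, TBX21 and TBX22 did not. TBX3, a factor of heart conduction tissue and limb, had a fold of 6.33 with 23 fragments over a rate of 2.79, upstream of the start. TBX6, a regulator of the presomitic mesoderm, had 5.76 with 26 fragments over 3.69, and TBX18, a factor of the epicardium and ureter, had 5.52 with 18 over 2.44. TBX20 of the heart had a fold of 5.16 with 26 fragments over 4.23. The 4 folds lay within a narrow range below the median of 8.26, and all 4 background rates were above 2.

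GATA1, GATA2 and GATA3 act in blood cell lineages, and GATA4, GATA5 and GATA6 in heart and endoderm. Only GATA5 carried a peak at the promoter. Its fold was 3.15, from 42 fragments over a rate of 12.6, the most fragments and the highest background of all 36 members. GATA2 with 141 CpGs, GATA3 with 143, GATA4 with 125 and GATA6 with 170 had no peak, and neither had GATA1 with 31 CpGs and no island. At GATA3 the nearest peak lay 3733 bp from the start, in an island within 10 kb.

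The members without a peak included some of the most CpG-rich promoters of all. SOX8 had 246 CpGs, SOX1 220, SOX18 198 and SOX7 186. Among FOX genes FOXC1 had 236, FOXL3 196, FOXE1 182 and FOXB2 181. TBX2 had 224 CpGs and TBX1 210, followed by TBX4 and TBX21 with 141 each. In all, 17 members with 144 CpGs or more had no peak. Over the 47 members without a peak, the distance from the start site to the nearest peak had a median of 76380 bp, from 2369 bp at TBX2 to 1624283 bp at FOXP2. It was at most 10 kb for 7 genes and over 100 kb for 19. The latter include SOX5 and SOX6, which had peaks at another annotated start. Such distances are not given for other promoters, so these values are a description only. Of the 47 genes, 37 had an island at the promoter and 10 had none.

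Fragments and background together set a peak's fold, so they are given separately. Over the 36 members with a peak, the median fold was 6.68 (quartiles 5.04 and 10.6), against 8.26 (6.21 and 11.05) for all coding promoters with a peak. The median number of fragments was 19.5 against 17, and the median background rate was 1.53 against 0.720. At the members the fold was thus lower and the background higher, with no fewer fragments. The rate was above 2 at 14 of the 36 members, or 38.9%, and at 20.4% of the other promoters with a peak. It was at the genome-wide floor of 0.611 at 6 of the 36, or 16.7%, and at 34.9% of the others.

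Folds were also compared within ranges of the background rate. At rates under 1 the 14 members, which were 12 FOX genes with SOX4 and SOX12, had a median fold of 10.6 and 18 fragments, and the others 9.93 and 15. At rates from 1 to 2 the 8 members had 6.69 and 16, and the others 7.69 and 17. At rates over 2 both had a median fold of 4.87 and 24 fragments. The 14 members at these rates included all TBX genes with a peak, GATA5, SOX3 and 8 FOX genes, FOXA2, FOXA3, FOXB1, FOXD1, FOXD2, FOXD3, FOXF1 and FOXF2. Fold and rate had a Spearman rho of -0.853 over the 36 members and -0.540 over the 8350 others, as a description, since the fold contains the rate and all points come from 1 library. A peak over a higher background also needs more fragments to be listed. The smallest number listed was 6 at the floor rate, 11 at a rate of 3, 19 at 7 and 30 at 14.

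**Figure D3:**
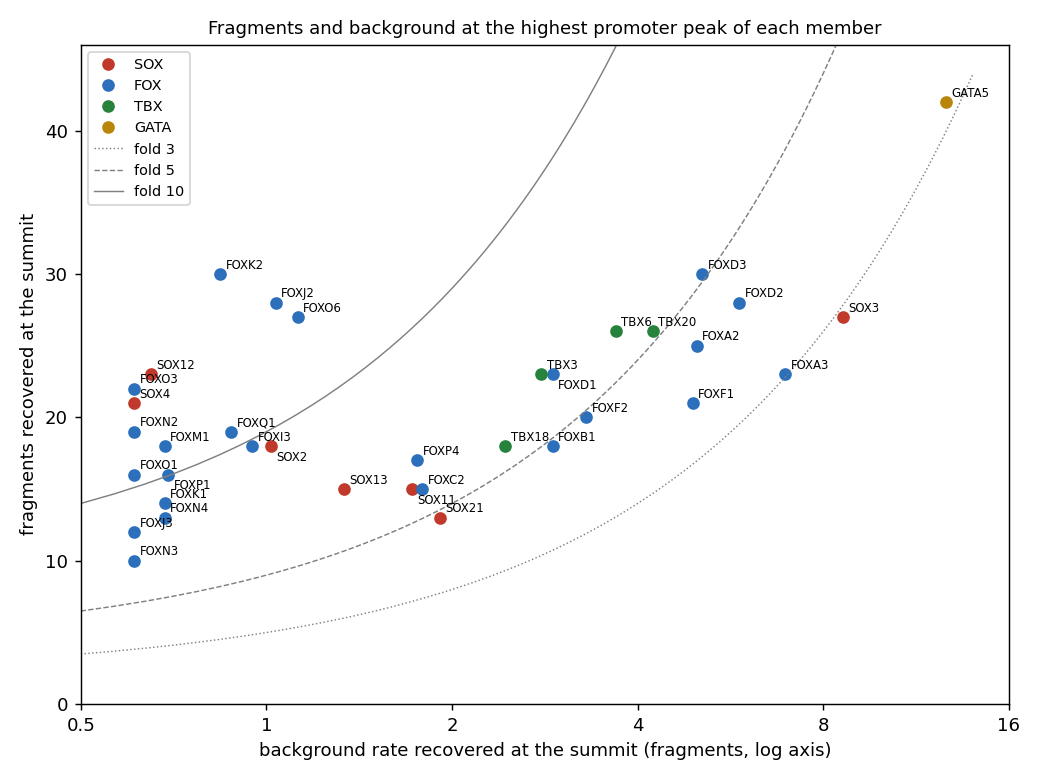
Fragments at the summit against the background rate in fragments (log axis) for the members with a promoter peak, coloured by family, with lines where the fold is 3, 5 and 10. The TBX genes, GATA5 and SOX3 lie at rates above 2, and SOX4, SOX12 and 12 FOX genes at rates under 1.

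The position of the peaks was described relative to the start site. A peak covered the start at 19 of the 36 members, or 52.8%, beside 64.3% of all coding promoters with a peak. It lay only downstream at 10 members, or 27.8% against 22.2%. It lay only upstream at 4, or 11.1% against 8.55%, and on both sides at 3, or 8.33% against 4.94%. Summits fell upstream of the start at 15 members, in the coding exon at 9, in an intron at 6 and in the 5′ untranslated region at 6. These places were not counted for other promoters. The median distance between summit and start was 428.5 bp, against 279 bp for all coding promoters with a peak. More than 1 peak lay at the promoter of 11 members, or 30.6%, against 12.5%. The members' peaks together covered a median of 46.4% of the CpGs in the window, against 54.8%, although the strongest peak was about as wide, with medians of 607.5 and 594 bp. The whole-window coverage was widest at SOX12, with 90.8% of its CpGs, and FOXO3, with 88.7%, and narrowest at FOXF2, with 10.3%.

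**Figure D4:**
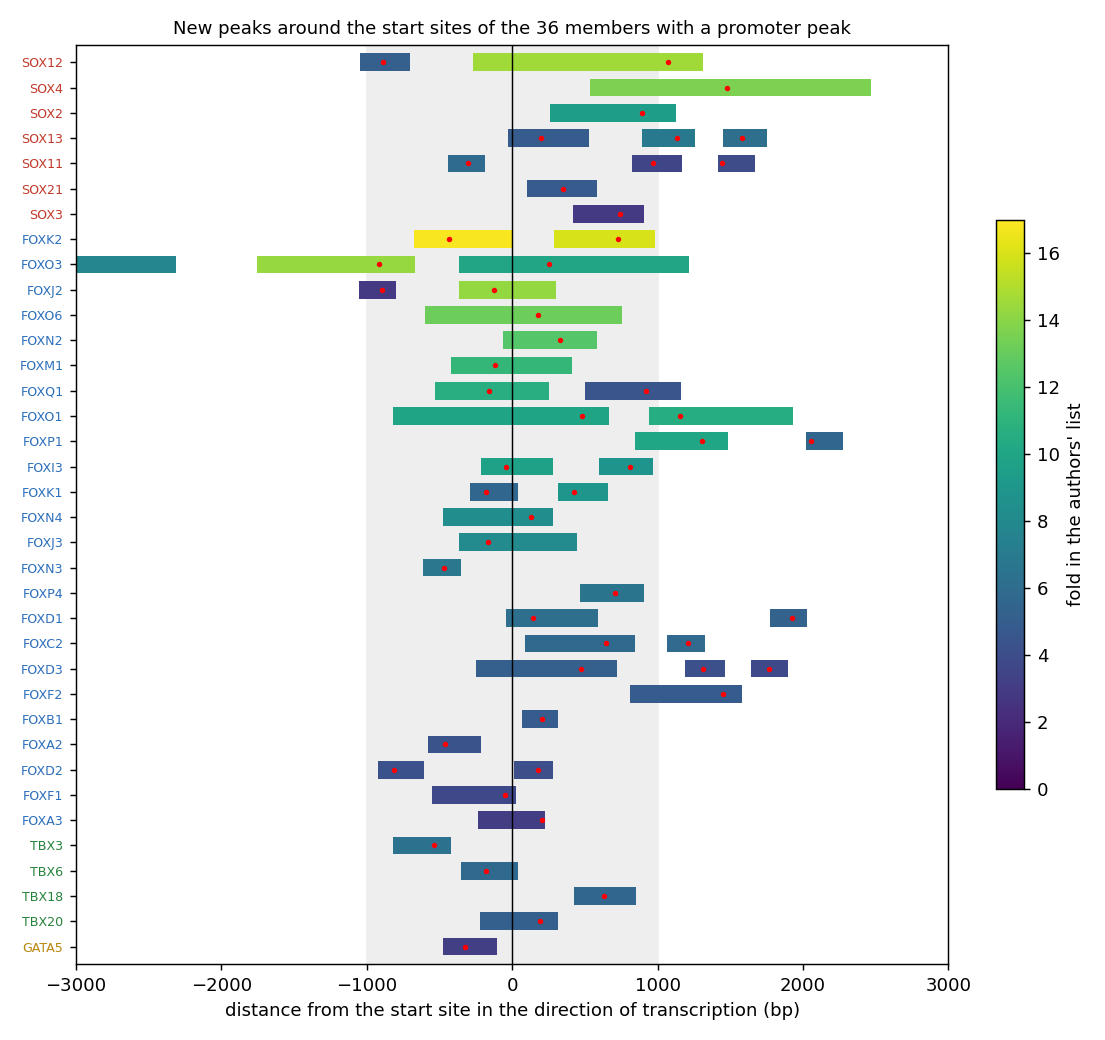
Positions of new peaks around the start sites of the 36 members with a promoter peak, in bp from the start in the direction of transcription, ordered by family and fold, with the fold given by colour, summits as red dots and the promoter window in grey. In 19 genes a peak crosses the start site, and in 10 the peaks lie only downstream.

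The promoters were also described by the length of their islands. The median island at member promoters was 2170 bp, against 889.5 bp at the others, and islands of 2000 bp or more were 52.1% of the members' islands and 8.65% of those of other genes. With islands under 2000 bp, 17 of 35 members carried a peak, or 48.6% (31.4 to 66.0), beside 56.6% of the others. With longer islands 19 of 38 did, or 50% (33.4 to 66.6), beside 66.9%. Of the 19 with a long island a peak covered the start in 7, beside 52.3% of other such promoters, and of the 17 with a shorter island in 12, beside 65.8%. Within 10 kb of the start sites lay 188 islands, and 46 carried a new peak, or 24.5% (18.5 to 31.3), beside 38.6% around other genes. Outside the promoter windows lay 113 of the 188 islands, and 7618 of the 21411 islands around other genes. The 24.5% and 38.6% therefore compare unlike mixes of promoter and other islands. Outside the promoter windows the shares with a peak were 7.08% and 8.56%, as shares of islands and not of peaks.

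Some members that neighbour each other in the genome differed and others did not. On chromosome 16, FOXF1 with its start at 86544133 and FOXC2 at 86600435 carried a peak, with folds of 3.72 and 5.73, and FOXL1 at 86612155 did not. On chromosome 6, FOXQ1 at 1312333 had a fold of 10.7 and FOXF2 at 1389811 of 4.88, while FOXC1 at 1610150 had no peak. On chromosome 1, FOXD2 carried a peak and FOXE3 did not, and on chromosome 12, TBX3 did and TBX5 did not. TBX2 and TBX4 on chromosome 17 both lacked one. These examples were picked by position after the values were known.

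Of the 6 members on the X chromosome, SOX3 carried a peak, and FOXO4, FOXP3, FOXR2, TBX22 and GATA1 did not, beside 8.17% of coding promoters on that chromosome. Low folds over high backgrounds were common there. The coding promoters on X with a peak had a median fold of 3.97, with medians of 26 fragments and a rate of 6.25. Genes with 1 exon, which include many FOX and SOX genes, carried a peak in 10 of 22 cases, beside 67.2% in the same CpG classes, and those with more exons in 26 of 61, beside 60%. Among promoters with an island, 47.6% of members with 1 exon carried a peak, beside 70.4% in their classes. Other genes with 1 exon and an island also lay below their classes, with 41.8% beside 54.0%. With more exons and an island the shares were 50% beside 69.9% for members and 58.0% beside 56.8% for others. At FOXM1, a driver of mitotic genes, the peak with a fold of 11.3 also covered the start of RHNO1.

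A list of 16 relatives that the symbol rule leaves out was described beside the members. It held the T-box genes EOMES, MGA, TBR1 and TBXT, the sex-determining gene SRY, the FOXD4-like genes FOXD4L1, FOXD4L3, FOXD4L4, FOXD4L5 and FOXD4L6, and the genes of zinc finger proteins that resemble or bind GATA factors, GATAD1, GATAD2A, GATAD2B, TRPS1, ZFPM1 and ZFPM2. New peaks lay at 5 of the 16 promoters, where the share in the same CpG classes was 50.9%. The folds were 12.4 at GATAD1, 8.07 at ZFPM2, 7.56 at GATAD2B, 6.83 at GATAD2A and 6.29 at EOMES. The GATAD2 genes encode subunits of the NuRD complex and are widely expressed. None of the FOXD4-like genes carried a peak, but their near-identical copies make read placement uncertain.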

How the data were processed

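DNA of HEK293 cells was pulled down with GST-MBD2 and sequenced in 4 conditions with 1 library each, grouped by the genotype label. According to the submitters' processing notes, FastQC, Bowtie2, deepTools and MACS2 were used on hg19, and versions are not given in the sources used here. The authors deposited 1 list of new peaks, that of the wild type cells, with a score per peak that was not used, a fold, which is a ratio of fragments to background and was compared only within the list, and the −log10 of each p-value and each q-value. The deposited distance of the summit from the peak start gave the summit. The new peaks are relative to untreated cells, according to the paper, which does not give the peak caller's settings.

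The number of fragments was taken as the whole number for which the fold and the p-value gave the same background rate, and the listed −log10 p was met within 0.000403 in every peak. Start sites were those of canonical transcripts in GENCODE release 44 on GRCh37, and for 281 genes without that tag, none of them a member, the longest basic transcript. An overlap of at least 1 bp counted. CpG islands were rebuilt on unmasked sequence by a running score of 17 per CpG and -1 per other base, with over 200 bp, at least 50% GC and an observed/expected ratio over 0.6, which gave 51437 islands.

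No test was made, as there is 1 library per condition. The members and lists were chosen with earlier results of these data known. Named with values are the 5 highest and 3 lowest folds of SOX and FOX, 3 highest and 2 lowest of TBX, all GATA genes, and the members without a peak with the most CpGs. Other values were chosen after they had been seen. The values of 1 member, which is included in the counts, are not reported here. Alternatives covered the peak threshold, overlap, window, start site, CpG classes and island criteria. A share was taken as moved when it left its 95% interval, and a count or fold when it changed by over 1.5 times. On simulated data 2000 of 2000 pileups, 40 of 40 islands and 300 of 300 overlaps were recovered. The work used samtools 1.23.1, pysam 0.24.0, scipy 1.17.1, pandas 2.3.3, matplotlib 3.10.9, numba 0.67.0 and numpy 2.4.6 under Python 3.11.15. Depth per library is not in the list, and the median of 18 fragments per summit sets the precision.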

Additional observations from a re-analysis of the deposited data

How the results depend on the processing

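Of 66 alternative values, 48 stayed within the limits set for them, 18 moved and 0 changed sign. With a −log10 q of at least 10, the members with a new peak numbered 19, with 14 FOX, 3 SOX, 2 TBX and 0 GATA genes, the median fold was 10.6, the share of islands within 10 kb with a peak was 11.7%, and the peaks lay only upstream at 1 member, only downstream at 4 and on both sides at 1. With a fold of at least the median of the list, 16 members remained counted, 13 FOX, 3 SOX, 0 TBX and 0 GATA, with a median fold of 10.96. The share of members was 22.9% at the stricter q and 19.3% at the fold cut. Over all coding promoters these shares were 24.6% and 25.6%, so at the fold cut the members lay below all promoters as well. With any transcript start, 2 GATA genes had a peak. With stricter island criteria the share of islands was 34.1%. Neither this share nor the 11.7% was computed around other genes, so they have no comparison. The cause of the moves was not tested, except that the first pair of settings keep fewer peaks by construction. The difference from the same CpG classes stayed negative in all 11 alternatives, from -13.7 points with a window of 500 bp to -21.9 points among promoters with an island. No paired analysis was possible because each condition had a single library. A promoter with few fragments or a high background can miss the threshold, so that counts without a peak are limited by depth.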

Other observations

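Some members without a peak at the canonical start had one at another annotated start, and these genes were looked up after the main counts were known. With any transcript start, 39 of the 83 members had a peak, or 46.99%, against 36, or 43.4%, with the canonical start. Over all coding genes the share also rose, from 41.6% to 44.96%, so such a gain was not particular to the members. At SOX5, a factor of cartilage and neural development, a start 612779 bp from the canonical one, on chromosome 12 at 24715383, had 2 peaks in its window with folds of 7.67 and 6.83, from 12 and 10 fragments. The window of this start held 144 CpGs, against 38 at the canonical start. At SOX6, the partner of SOX5 in cartilage, a start 249446 bp away, of a transcript outside the basic set, had peaks with folds of 5.32 and 6.05, from 23 and 25 fragments, and its window held 129 CpGs against 12. At GATA4 a start 11576 bp away, also outside the basic set, had a peak with a fold of 5.89 from 11 fragments.

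Of the 7 members without a promoter peak that had one within 10 kb, the nearest were TBX2, SOX15 and GATA3. The peak near TBX2 had its summit 2829 bp upstream, with a fold of 2.62 from 38 fragments over a rate of 13.9. The one near SOX15 had its summit 2670 bp upstream, with a fold of 3.15 from 24 fragments over 6.94. GATA3 had 2 peaks upstream, with folds of 4.07 and 3.56.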
